A study of Mus musculus with 16 samples.

Results

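Brush border hydrolases are the enzymes that small intestinal enterocytes display on their microvilli. The 9 genes described here are Alpi and Akp3, which encode intestinal alkaline phosphatases, Lct, Sis and Treh, which encode disaccharidases, and Anpep, Enpep, Dpp4 and Mep1a, which encode peptidases. They were chosen by name, as apical phosphatases, peptidases and disaccharidases, from a table of read counts for 49585 genes. Ensembl identifiers were matched to symbols without the version, and all 9 were found. RNA sequencing was done on 16 cultures of mouse small intestinal organoids, which are cultures of pure crypt epithelium in Matrigel. The cultures formed 4 groups of 4. Organoids from Atg16l1 fl/fl mice with villin (V)-cre+ (ΔIEC) lacked the autophagy gene Atg16l1 in villin-expressing cells, that is, in the intestinal epithelium, and organoids of cre-negative Atg16l1 fl/fl mice (fl/fl) kept it. Each genotype was left untreated or given 10 ng/ml of IL-22 during 24 h, and all organoids grew in a medium with EGF, Noggin and R-spondin 1. The mice were of C57BL/6 background and 8 to 12 wk old, and the controls were littermates. The sample descriptions carry organoid numbers, which are read here as 2 lines per genotype, 1293 and 1294 for fl/fl and 1290 and 1292 for ΔIEC, with 2 cultures per line and treatment. Whether each number stands for 1 mouse is not given in the sources used here. The lower number of each genotype is called line 1 here and the higher line 2. Because the 4 cultures of a group came from 2 lines, p-values measure the spread between cultures, and a genotype difference rests on 2 lines per side.

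These enzymes finish digestion at the cell surface. Disaccharidases split lactose (lactase, Lct), sucrose and starch fragments (sucrase-isomaltase, Sis) and trehalose (trehalase, Treh), so that monosaccharides can be taken up. Aminopeptidase N (Anpep), aminopeptidase A (Enpep) and dipeptidyl peptidase 4 (Dpp4) trim peptides from the amino end, and the metalloprotease meprin A subunit alpha (Mep1a) cuts within proteins and peptides. Intestinal alkaline phosphatases remove phosphate groups, including those of bacterial lipopolysaccharide, and together with Sis they are used as markers of mature enterocytes. IL-22 is a cytokine of innate lymphoid cells and T cells that acts on epithelial cells through STAT3.

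Promoters are shown for the 2 phosphatase genes, which moved together in these data, and for Lct and Sis, the disaccharidases that are best known as products of mature enterocytes. Each runs from 250 bases before to 50 bases after the RefSeq gene start (GRCm38.p6), and positions are counted from that start. Capitals mark TTTAT, the core of sites bound by CDX factors, and GTTAAT, a form of the HNF1 site, on either strand. The Alpi promoter lies at chr1:87101557-87101856 on the minus strand, that of Akp3 at chr1:87124704-87125003 on the plus strand, that of Lct at chr1:128328269-128328568 on the minus strand and that of Sis at chr3:72967814-72968113 on the minus strand.
Alpi: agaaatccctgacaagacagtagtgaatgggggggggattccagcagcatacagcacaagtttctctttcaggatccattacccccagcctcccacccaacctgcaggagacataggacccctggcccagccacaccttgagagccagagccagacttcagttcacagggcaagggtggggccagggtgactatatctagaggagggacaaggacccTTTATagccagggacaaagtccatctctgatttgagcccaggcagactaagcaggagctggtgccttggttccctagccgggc
Akp3: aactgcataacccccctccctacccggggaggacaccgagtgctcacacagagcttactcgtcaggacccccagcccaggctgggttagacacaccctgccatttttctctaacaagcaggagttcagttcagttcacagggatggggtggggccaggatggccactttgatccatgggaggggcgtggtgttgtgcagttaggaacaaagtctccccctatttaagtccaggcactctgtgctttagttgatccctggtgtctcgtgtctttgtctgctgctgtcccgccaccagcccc
Lct: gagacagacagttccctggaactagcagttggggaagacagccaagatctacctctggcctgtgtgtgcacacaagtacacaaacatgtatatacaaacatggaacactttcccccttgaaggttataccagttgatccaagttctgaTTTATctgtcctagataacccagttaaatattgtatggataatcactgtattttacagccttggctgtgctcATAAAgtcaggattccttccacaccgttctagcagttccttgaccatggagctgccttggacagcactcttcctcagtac
Sis: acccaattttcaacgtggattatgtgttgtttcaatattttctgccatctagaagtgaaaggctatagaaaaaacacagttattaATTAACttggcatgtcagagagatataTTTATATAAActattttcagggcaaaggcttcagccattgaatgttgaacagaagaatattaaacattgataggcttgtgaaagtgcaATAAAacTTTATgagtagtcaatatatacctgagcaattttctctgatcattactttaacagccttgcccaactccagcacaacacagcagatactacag
Alpi and Akp3 are neighbours on chromosome 1 that are read away from each other, and the longest stretch that their promoters shared was 14 bases (ttcagttcacaggg, from -94 in Alpi and from -122 in Akp3). TTTAT was found in the promoters of 6 of the 9 genes, against 40.0% of 32851 promoters in the whole table, with 4 matches in Sis, 2 in Lct and none in Akp3. A longer CDX form, TTTATNG, which overlaps the short form, was in 4 of 9 promoters (10.9% of all). The HNF1 form was in 1 of 9, Sis (7.1% of all). A site read by GATA factors, AGATAA, was in 2 of 9 (11.2%). Part of the HNF4 site, CAAAG, was found for 7 of 9 (53.9%). A core of KLF sites, CACCC, was found for 6 of 9 (57.5%). These matches are letters in a window and do not show binding.

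All 9 are protein-coding genes, and their spans on GRCm38 come from GENCODE. Among the phosphatases, Alpi (ENSMUSG00000079440.2) at chr1:87098002-87101606 on the minus strand and Akp3 (ENSMUSG00000036500.4) at chr1:87124973-87127912 on the plus strand are separated by a short stretch of chromosome 1. The disaccharidase genes are Lct (ENSMUSG00000026354.8) at chr1:128284756-128328318 on the minus strand, Sis (ENSMUSG00000027790.14) at chr3:72888557-72967863 on the minus strand and Treh (ENSMUSG00000032098.13) at chr9:44673233-44686305 on the plus strand. The peptidase genes are Anpep (ENSMUSG00000039062.15) at chr7:79821803-79861059 on the minus strand, Enpep (ENSMUSG00000028024.14) at chr3:129269175-129332720 on the minus strand, Dpp4 (ENSMUSG00000035000.8) at chr2:62330073-62412231 on the minus strand and Mep1a (ENSMUSG00000023914.16) at chr17:43474324-43502812 on the minus strand.

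Reads assigned to genes numbered 2135000 to 5574860 per culture, and 12559 genes passed the filter on low counts, all 9 hydrolases among them. Values are CPM, the counts of a culture scaled to a common total with TMM. The labels were checked on Atg16l1, with 40.2 ± 7.24 CPM (SD, n = 4) in untreated fl/fl and 2.67 ± 1.20 CPM in untreated ΔIEC. With IL-22 it was at 45.0 ± 6.33 CPM in fl/fl and 1.84 ± 2.76 CPM in ΔIEC, where the second treated culture of line 1 had 5.96 CPM (21 counts) and the other 3 had 0.289 to 0.810 CPM. The labels were also checked on the IL-22 target Reg3b, which went from 12.8 to 19161 CPM in fl/fl and from 11.2 to 26824 CPM in ΔIEC. Of 7 stromal marker genes none passed the filter, and their summed level was 0.405 to 3.69 CPM. Of 6 immune marker genes 2 passed, with a summed level of 2.49 to 9.11 CPM. The RNA came from whole cultures, so fewer cells of a type and less RNA per cell cannot be told apart.

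Per length of transcript, the phosphatases stood far above the other hydrolases. In untreated fl/fl organoids Akp3 reached 785 ± 508 RPKM (CPM per kilobase of exon; SD, n = 4) and Alpi 511 ± 289.7 RPKM, and the ranges of both overlapped. Sis followed with 144 ± 52.0 RPKM, below every culture's value for either phosphatase. The other genes were about an order of magnitude lower, with Dpp4 at 16.9 ± 1.62, Mep1a at 14.1 ± 2.02, Lct at 11.2 ± 3.53, Enpep at 9.80 ± 4.51, Anpep at 7.25 ± 0.515 and Treh at 5.20 ± 1.60 RPKM, and each neighbour in this order overlapped the next. Alpi and Akp3 together made up 81.5% ± 12.9 (SD, n = 4) of the summed RPKM of the 9 genes in untreated fl/fl and 91.3% ± 3.89 in untreated ΔIEC organoids. With IL-22 the 3 most abundant genes by mean were still Akp3, Alpi and Sis, and the summed level of all 9 was 557 ± 307 RPKM in fl/fl, against 1504 ± 739 untreated, and 433 ± 107 RPKM in ΔIEC, against 1726 ± 349.6. In treated ΔIEC the mean of Alpi (217 ± 83.4 RPKM) was above that of Akp3 (136 ± 69.2 RPKM). At the low end the order changed as well. The mean of Lct, which was above those of Enpep, Anpep and Treh in untreated fl/fl, was last in IL-22–treated organoids of both genotypes, at 0.618 ± 0.326 and 0.298 ± 0.315 RPKM.

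**Figure D1:**
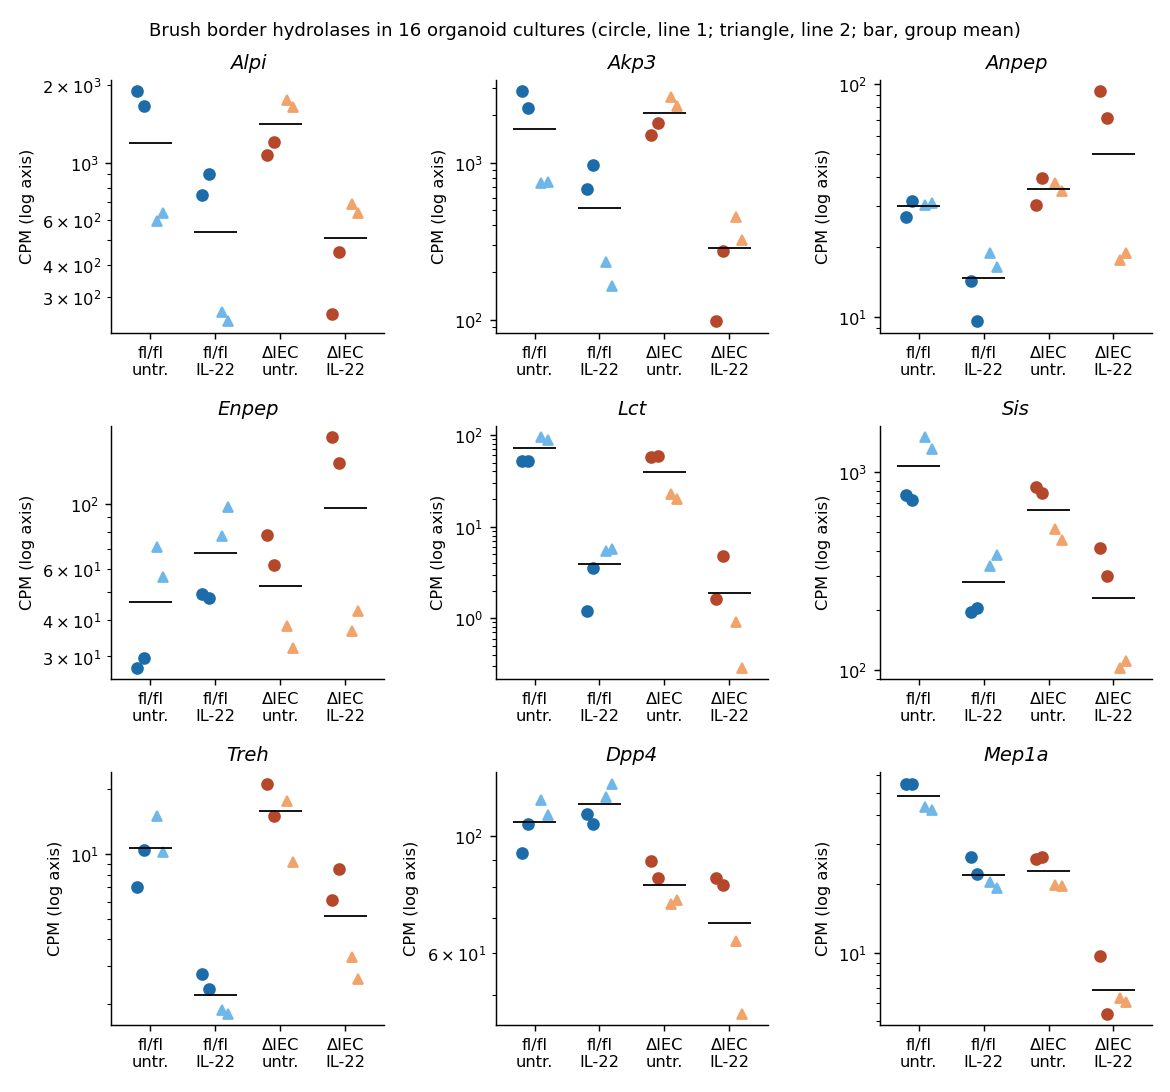
CPM of each hydrolase on a log axis in the 4 groups, with 1 point per culture, circles for line 1 and triangles for line 2 of each genotype and a bar at the group mean (n = 4). Lct, Sis, Treh and Mep1a sit lower in all IL-22 cultures than in all untreated cultures of their genotype, and for most genes the 2 lines of a genotype form separate pairs, with Alpi and Akp3 ordered opposite to Sis, Lct and Enpep.

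The first question was what IL-22 did to these genes in organoids of each genotype. Falls outnumbered rises. Lct, Sis, Treh and Mep1a passed the threshold (edgeR quasi-likelihood test, Benjamini-Hochberg adjusted p under 0.01) in both genotypes, and Akp3 passed it in ΔIEC as well. In fl/fl this was 0 of 9 higher and 4 lower, where 20.8% of all tested genes passed in either direction (10.6% higher and 10.2% lower). In ΔIEC it was 0 higher and 5 lower, against 17.5% of all genes (9.83% higher and 7.65% lower). The median log2 fold change of the 9 genes was -1.17 in fl/fl and -1.49 in ΔIEC, and that of all tested genes -0.05 and -0.01. Cultures of a group differed between organoid lines, and the common biological coefficient of variation was 0.115 around group means and 0.0707 with the line in the fit. With the line as a block, which compares treated with untreated cultures of the same line, 7 of 9 fell and 1 rose in fl/fl (30.6% of all genes passed in either direction), and 6 fell and 1 rose in ΔIEC (25.5%). Counted by culture, 5 of 9 genes in fl/fl and 6 of 9 in ΔIEC had all IL-22 values under all untreated values, while 15.4% and 13.2% of all tested genes did so.

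**Figure D2:**
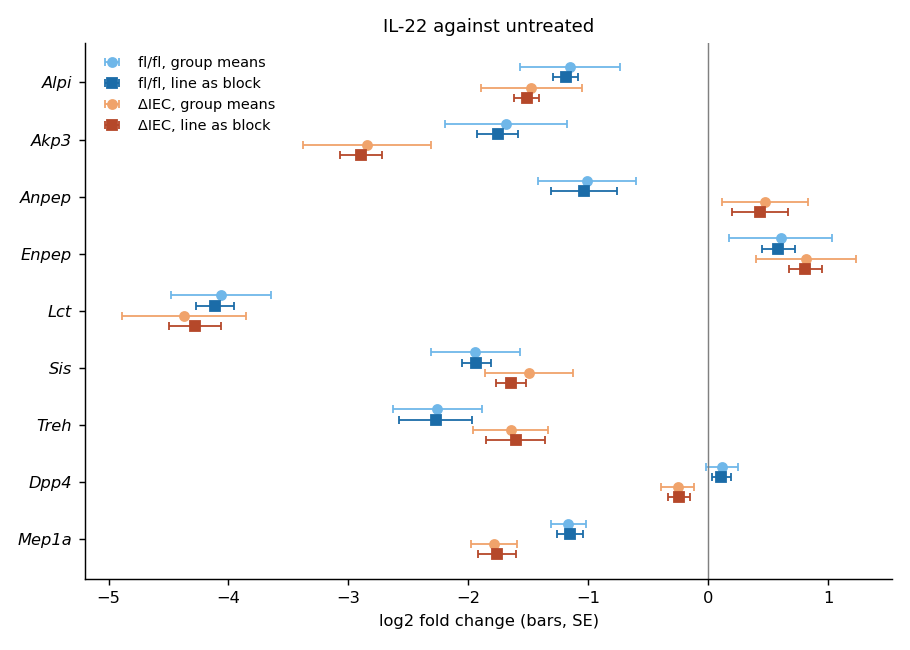
Log2 fold change of IL-22 against untreated organoids for each hydrolase (points, with bars for the SE), from the fit of group means and from the fit with the organoid line as a block. Lct lies at -4.06 in fl/fl and -4.37 in ΔIEC in the fit of group means, Enpep lies above 0, and the bars of Alpi and Akp3 shrink most when the line is a block.

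Lct showed the deepest fall. In fl/fl it was at 52.3 and 52.1 CPM in line 1 and 93.8 and 88.5 CPM in line 2 untreated. With IL-22 it was at 1.19 and 3.51 CPM in line 1 and 5.44 and 5.69 CPM in line 2. Every treated culture thus lay far under every untreated one, a 16.7-fold fall by the fit (log2 fold change -4.06 ± 0.42 SE, adjusted p = 4.83e-07). In ΔIEC untreated cultures held 57.1 and 58.3 CPM in line 1 and 22.9 and 19.9 CPM in line 2. After IL-22 they held 1.62 and 4.83 CPM in line 1 and 0.907 and 0.289 CPM in line 2. This was a 20.7-fold fall by the fit (log2 fold change -4.37 ± 0.52 SE, adjusted p = 2.67e-06). Few reads lie behind the IL-22 values, 3, 15, 29 and 19 counts in fl/fl and 4, 17, 3 and 1 counts in ΔIEC, so the order of the treated cultures is uncertain at this depth. The size of the fall in ΔIEC depends on the culture with 17 counts, the second treated one of line 1, and was -5.51 on the log2 scale without it and -5.09 without line 1. That culture also had the most Atg16l1 of the 4 treated ΔIEC cultures.

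Sis, the most abundant disaccharidase per length among the 9 genes, also fell in both genotypes. Untreated fl/fl cultures held 767 and 727 CPM in line 1 and 1497 and 1316 CPM in line 2. IL-22–treated fl/fl cultures held 196 and 206 CPM in line 1 and 335 and 382 CPM in line 2. The groups did not overlap (log2 fold change -1.94 ± 0.37 SE, adjusted p = 0.000443). In ΔIEC the levels were 837 and 781 CPM in line 1 and 519 and 453 CPM in line 2 untreated. They were 416 and 298 CPM in line 1 and 103 and 111 CPM in line 2 with IL-22. Here too all treated cultures were lower (log2 fold change -1.49 ± 0.37 SE, adjusted p = 0.00444), although the log2 fold change was -2.18 without line 1, and the call was lost without any 1 of the 2 untreated cultures of line 1 or the 2 treated cultures of line 2 (adjusted p = 0.0155 to 0.0189) or without line 2 (0.0263). With the line as a block the adjusted p in ΔIEC was 4.88e-12. When the cultures of a line were summed the call was lost in both genotypes (adjusted p = 0.0441 in fl/fl and 0.104 in ΔIEC).

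Treh, the least abundant disaccharidase per length in untreated fl/fl organoids, was at 7.01 and 10.5 CPM in line 1 and 15 and 10.2 CPM in line 2. With IL-22 it was at 2.77 and 2.34 CPM in line 1 and 1.88 and 1.80 CPM in line 2, under all untreated values (log2 fold change -2.26 ± 0.37 SE, adjusted p = 0.000102). In ΔIEC it went from 21.2 and 15 CPM in line 1 and 17.7 and 9.14 CPM in line 2 to 6.08 and 8.52 CPM in line 1 and 3.32 and 2.60 CPM in line 2 (log2 fold change -1.65 ± 0.31 SE, adjusted p = 0.000452). The gene overlaps Phldb1 on the opposite strand, which had 1105 counts over all cultures against 451 for Treh. The strand setting of the counting is not given in the sources used here, so reads of the pair may not have been kept apart. The call was lost without line 2 of either genotype (adjusted p = 0.0272 in fl/fl and 0.0112 in ΔIEC). It was also lost when the cultures of a line were summed (adjusted p = 0.0125 in fl/fl and 0.0280 in ΔIEC).

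The phosphatases fell in every line, but their group means were spread widely by the lines. Alpi in fl/fl was at 1893 and 1653 CPM in line 1 and 591 and 637 CPM in line 2 untreated. With IL-22 it was at 751 and 904 CPM in line 1 and 262 and 241 CPM in line 2. Treated line 1 therefore exceeded untreated line 2, and the fall missed the threshold in the fit of group means (log2 fold change -1.15 ± 0.42 SE, adjusted p = 0.0403) and passed it with the line as a block (log2 fold change -1.19 ± 0.10 SE, adjusted p = 1.14e-10). In ΔIEC the untreated cultures held 1069 and 1202 CPM in line 1 and 1753 and 1638 CPM in line 2. The treated ones held 259 and 449.9 CPM in line 1 and 688 and 635 CPM in line 2. Those groups did not overlap, and the adjusted p was 0.0122 without the block (log2 fold change -1.48 ± 0.42, SE) and 6.68e-13 with it (-1.51 ± 0.10).

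Akp3, the second phosphatase gene, followed the same layout with a larger change. Untreated fl/fl cultures held 2850.1 and 2242 CPM in line 1 and 742 and 755 CPM in line 2. Treated ones held 683 and 968 CPM in line 1 and 234 and 164 CPM in line 2. The ranges overlapped across lines but not within a line (log2 fold change -1.69 ± 0.51 SE, adjusted p = 0.0154; with the line as a block -1.75 ± 0.17, adjusted p = 8.42e-10). In ΔIEC the levels were 1502 and 1786 CPM in line 1 and 2634 and 2308 CPM in line 2 untreated. With IL-22 they were 97.6 and 273 CPM in line 1 and 449 and 321 CPM in line 2. The highest treated culture was thus under the lowest untreated one by a wide margin, with a 7.19-fold fall by the fit (log2 fold change -2.85 ± 0.53 SE, adjusted p = 0.000424). With only line 1 or only line 2 of ΔIEC in the fit the adjusted p was 0.0126 or 0.0202. When the cultures of a line were summed the adjusted p in ΔIEC was 0.03885. Of the 50-base windows in the exons of Alpi, 35 (1.53%) also occur in Akp3, so few reads could be shared between them.

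Among the peptidases Mep1a fell in both genotypes. In fl/fl it was at 54.9 and 54.6 CPM in line 1 and 43.5 and 42.0 CPM in line 2 untreated. It was at 26.1 and 22.2 CPM in line 1 and 20.5 and 19.2 CPM in line 2 with IL-22, without overlap (log2 fold change -1.17 ± 0.14 SE, adjusted p = 4.99e-06). In ΔIEC it went from 25.7 and 26.3 CPM in line 1 and 19.7 and 19.5 CPM in line 2 to 9.72 and 5.40 CPM in line 1 and 6.35 and 6.08 CPM in line 2, again without overlap (log2 fold change -1.79 ± 0.19 SE, adjusted p = 6.66e-07). In ΔIEC with IL-22 it had 19 to 24 counts per culture.

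Anpep responded to IL-22 in different directions in the 2 lines of ΔIEC. In fl/fl it was at 26.9 and 31.6 CPM in line 1 and 30.4 and 31.0 CPM in line 2 untreated. With IL-22 it was at 14.3 and 9.58 CPM in line 1 and 18.8 and 16.5 CPM in line 2. All treated cultures were lower, but the fall missed the threshold in the fit of group means and passed it with the line as a block (log2 fold change -1.01 ± 0.41 SE, adjusted p = 0.0668; blocked -1.04 ± 0.28, adjusted p = 0.00297). Untreated ΔIEC cultures held 30.2 and 39.4 CPM in line 1 and 37.8 and 34.9 CPM in line 2. With IL-22 the values were 93.2 and 71.9 CPM in line 1 and 17.5 and 18.8 CPM in line 2. The treated cultures of line 1 were above and those of line 2 below all untreated cultures, and the mean change, 0.47 ± 0.36 SE, did not pass (adjusted p = 0.366).

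Enpep was the 1 gene whose mean was higher with IL-22 in both genotypes. Its levels in fl/fl were 27.5 and 29.6 CPM in line 1 and 71.2 and 56.2 CPM in line 2 untreated. They were 49.1 and 47.7 CPM in line 1 and 77.5 and 97.4 CPM in line 2 with IL-22. Treated cultures of each line were above untreated cultures of the same line, while the lines overlapped, and the rise missed the threshold in the fit of group means and passed it with the line as a block (log2 fold change 0.60 ± 0.43 SE, adjusted p = 0.303; blocked 0.59 ± 0.14, adjusted p = 0.000967). In ΔIEC the levels were 78.0 and 61.8 CPM in line 1 and 38.2 and 32.0 CPM in line 2 untreated. They were 169 and 138 CPM in line 1 and 36.6 and 43.1 CPM in line 2 with IL-22. The change passed with the block (0.81 ± 0.14, adjusted p = 1.53e-05) and not without it (0.82 ± 0.42, adjusted p = 0.156).

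Dpp4 had the smallest mean change with IL-22 of the 9 genes. In fl/fl it averaged 106 ± 10.3 CPM (SD, n = 4) untreated and 115 ± 9.03 CPM with IL-22, and in ΔIEC 80.7 ± 7.10 and 68.4 ± 17.4 CPM. Neither difference passed. It was 0.12 ± 0.13 SE on the log2 scale in fl/fl (adjusted p = 0.535) and -0.25 ± 0.14 in ΔIEC (adjusted p = 0.189). An antisense gene that overlaps Dpp4 had 12 counts over all cultures.

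The second question was whether the genotype changed these genes or their response. In untreated organoids 1 of 9, Mep1a, was lower in ΔIEC and none was higher, against 9.76% of all genes in either direction (3.78% higher and 5.98% lower). All 4 untreated ΔIEC cultures of Mep1a lay between 19.5 and 26.3 CPM and all 4 fl/fl cultures between 42.0 and 54.9 CPM (log2 fold change -1.08 ± 0.15 SE, adjusted p = 6.91e-05). The call was lost when the cultures of a line were summed (adjusted p = 0.0303). Dpp4 was lower in every ΔIEC culture too, but its adjusted p of 0.0458 did not pass (log2 fold change -0.39 ± 0.13, SE). These 2 genes had no overlap, as did 12.6% of all genes in that direction, and the other 7 overlapped between the genotypes. Lct and Sis had log2 fold changes of -0.78 ± 0.31 and -0.73 ± 0.36 (adjusted p = 0.0792 and 0.154), Treh of 0.62 ± 0.28 (adjusted p = 0.120), and Alpi, Akp3, Anpep and Enpep of 0.24 to 0.32 with adjusted p of at least 0.691.

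In IL-22–treated organoids Mep1a and Dpp4 were lower in ΔIEC and Anpep was higher, 3 of 9 genes where 19.8% of all genes passed (9.91% higher and 9.84% lower). Mep1a was at 6.89 ± 1.93 CPM in ΔIEC and 22 ± 3.02 CPM in fl/fl (log2 fold change -1.69 ± 0.19 SE, adjusted p = 3.94e-06). Dpp4 was at 110.5 and 105 CPM in line 1 and 119 and 126 CPM in line 2 of fl/fl. In ΔIEC it was at 83.4 and 81.0 CPM in line 1 and 63.2 and 46.0 CPM in line 2. Neither Mep1a nor Dpp4 overlapped between the genotypes, as for 14.2% of all genes that were lower (log2 fold change -0.76 ± 0.13 SE, adjusted p = 0.000323 for Dpp4). The higher mean of Anpep (log2 fold change 1.72 ± 0.39 SE, adjusted p = 0.00254) lay in 1 line, as ΔIEC line 2 had 17.5 and 18.8 CPM and fl/fl cultures 9.58 to 18.8 CPM. Without ΔIEC line 2 the log2 fold change was 2.44. Without ΔIEC line 1 it was 0.28 (adjusted p = 0.385), and the call was also lost without either treated culture of that line alone (adjusted p = 0.0128 and 0.0152) or without the second treated culture of fl/fl line 1 (0.0109). It was lost without either fl/fl line as well (0.0381 and 0.0115).

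Whether IL-22 acted on a gene more in one genotype than in the other was read from the interaction term. No hydrolase passed in the fit of group means, in which 0.0159% of all genes did, and DESeq2 and limma-voom also called 0. The lowest adjusted p in the fit of group means were 0.530 (Anpep) and 0.559 (Mep1a). With the line as a block 1 of 9 passed, Akp3, against 0.446% of all genes. Its fall was deeper in ΔIEC (-2.90 ± 0.18) than in fl/fl (-1.75 ± 0.17), a difference of -1.14 ± 0.24 (SE) with an adjusted p of 0.00924, and without the block the same difference was -1.16 ± 0.71 (adjusted p = 0.789). For Anpep the blocked difference was 1.47 ± 0.36 and the adjusted p 0.0309. For the other 7 genes the blocked differences ran from -0.61 (Mep1a) to 0.67 (Treh), with adjusted p of at least 0.125.

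Organoid lines of 1 genotype also differed in these genes. In fl/fl 5 of 9 hydrolases differed between line 2 and line 1 (3 higher and 2 lower, against 11.0% of all genes, 5.95% higher and 5.02% lower), and in ΔIEC 7 of 9 (2 higher and 5 lower, against 3.98% of all genes, 2.75% higher and 1.23% lower), in a fit with a mean per line and an IL-22 effect per genotype. The phosphatases went one way. Alpi and Akp3 were lower in line 2 of fl/fl, 3.07-fold and 3.74-fold (log2 fold changes -1.62 ± 0.11 and -1.90 ± 0.17, adjusted p = 2.17e-12 and 1.83e-09), and higher in line 2 of ΔIEC (0.73 ± 0.10 and 0.79 ± 0.17, adjusted p = 1.66e-05 and 0.00234). Enpep, Lct and Sis went the other way. They were higher in line 2 of fl/fl (0.96 ± 0.14, 0.83 ± 0.13 and 0.87 ± 0.12, adjusted p of at most 4.59e-05) and lower in line 2 of ΔIEC (-1.54 ± 0.14, -1.50 ± 0.17 and -1.18 ± 0.12, adjusted p of at most 9.49e-07). For these 5 genes the 2 cultures of one line lay on the same side of both cultures of the other in all 4 groups.

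**Figure D3:**
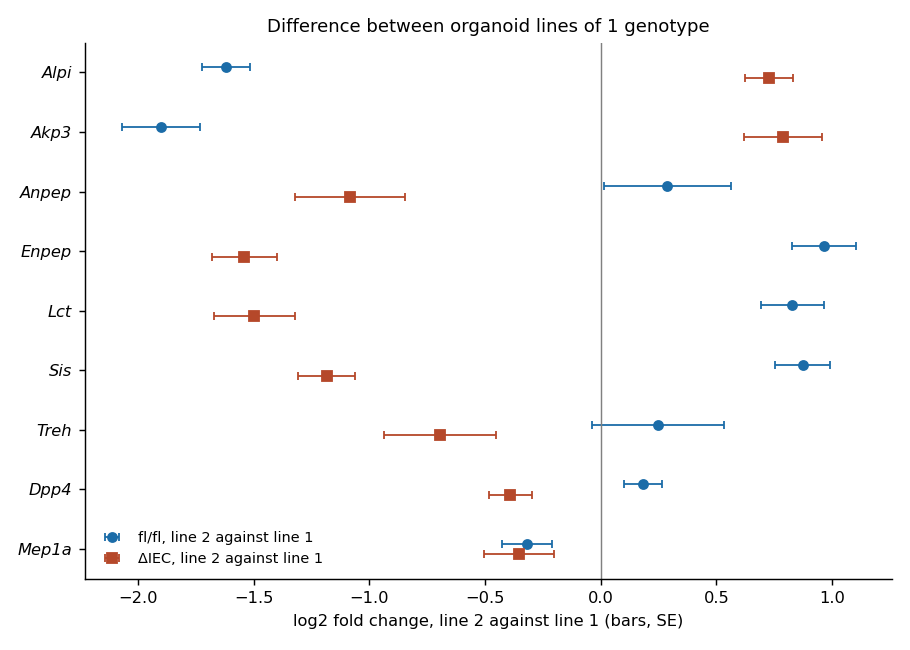
Log2 fold change of line 2 against line 1 for each hydrolase within fl/fl and within ΔIEC (points, with bars for the SE). Alpi and Akp3 are negative in fl/fl and positive in ΔIEC, and Enpep, Lct and Sis are the reverse.

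Anpep and Dpp4 were lower in line 2 of ΔIEC (-1.08 ± 0.24 and -0.39 ± 0.09, adjusted p = 0.00311 and 0.00655), and Treh and Mep1a did not pass between lines of either genotype. The difference of Anpep lay in the treated cultures, with means of 82.5 CPM in line 1 and 18.2 CPM in line 2. Untreated, its line means were 34.8 and 36.3 CPM and the cultures overlapped. With DESeq2 the calls of Akp3 and Anpep in ΔIEC were lost (adjusted p = 0.0705 and 0.0876). The calls of Akp3, Anpep and Dpp4 in ΔIEC were lost on leaving out single cultures, as given in the closing section. Over the 16 cultures, after subtraction of the group means, log2 CPM of Alpi and Akp3 had a Pearson r of 0.985, Enpep and Sis of 0.990 and Alpi and Sis of -0.847. These values are descriptions, since cultures share lines and groups. Markers of intestinal position differed between the same lines. Of 4 genes listed for the proximal small intestine (Gata4, Onecut2, Cybrd1 and Pdx1), 3 were lower in line 2 of fl/fl and 3 higher in line 2 of ΔIEC. Their summed level in untreated cultures was 1076 to 1223 CPM in line 1 and 475 to 486 CPM in line 2 of fl/fl, and 594 to 741 and 982 to 1085 CPM in lines 1 and 2 of ΔIEC. Of 3 tested ileum genes 1, Osr2, was higher in line 2 of fl/fl (1.45, adjusted p = 4.47e-07) and lower in line 2 of ΔIEC (-1.21, adjusted p = 0.00158). The ileal bile acid transporter gene Slc10a2 had log2 fold changes of 0.62 in fl/fl and 1.20 in ΔIEC (adjusted p = 0.0907 and 0.0365), and Gucy2c of 0.08 and -0.18 (0.449 and 0.135). The part of position in the differences between lines was not tested.

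The IL-22 effect was then estimated within each line from its 2 treated and 2 untreated cultures. In fl/fl 7 of 9 fell and 1 rose in line 1, where 16.7% of all genes passed, and 7 fell in line 2 (21.2% of all genes). In ΔIEC 6 fell and 2 rose in line 1 (15.4%) and 8 fell in line 2 (16.4%). Alpi, Akp3, Lct, Sis, Treh and Mep1a fell in all 4 lines. The fall of Alpi ran from -1.10 ± 0.13 to -1.67 ± 0.14, that of Akp3 from -1.62 ± 0.22 to -3.12 ± 0.24 and that of Lct from -4.03 ± 0.20 to -5.10 ± 0.44 (log2 ± SE). Enpep rose in line 1 of both genotypes (0.76 ± 0.17 and 1.12 ± 0.13, adjusted p = 0.00102 and 3.05e-08), was just over the threshold in line 2 of fl/fl (0.47 ± 0.14, adjusted p = 0.0104) and had 0.18 ± 0.18 in line 2 of ΔIEC (adjusted p = 0.521). Dpp4 passed in 1 of 4 lines, line 2 of ΔIEC, where it fell by 0.46 on the log2 scale (adjusted p = 0.00908).

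Anpep fell in both fl/fl lines (-1.36 ± 0.21 and -0.79 ± 0.19) and in line 2 of ΔIEC (-0.999 ± 0.20, adjusted p = 0.000248) but rose in line 1 of ΔIEC (1.23 ± 0.15, adjusted p = 7.60e-08). The difference between the 2 ΔIEC lines was -2.23 ± 0.25 (adjusted p = 1.98e-06). Sis fell further in line 2 of ΔIEC (-2.18 ± 0.12) than in line 1 (-1.19 ± 0.11), a difference of -0.99 ± 0.16 (adjusted p = 0.000943). Thus 2 of 9 genes differed between ΔIEC lines, against 0.111% of all genes, and none of the 9 between fl/fl lines, against 0.0159%.

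**Figure D4:**
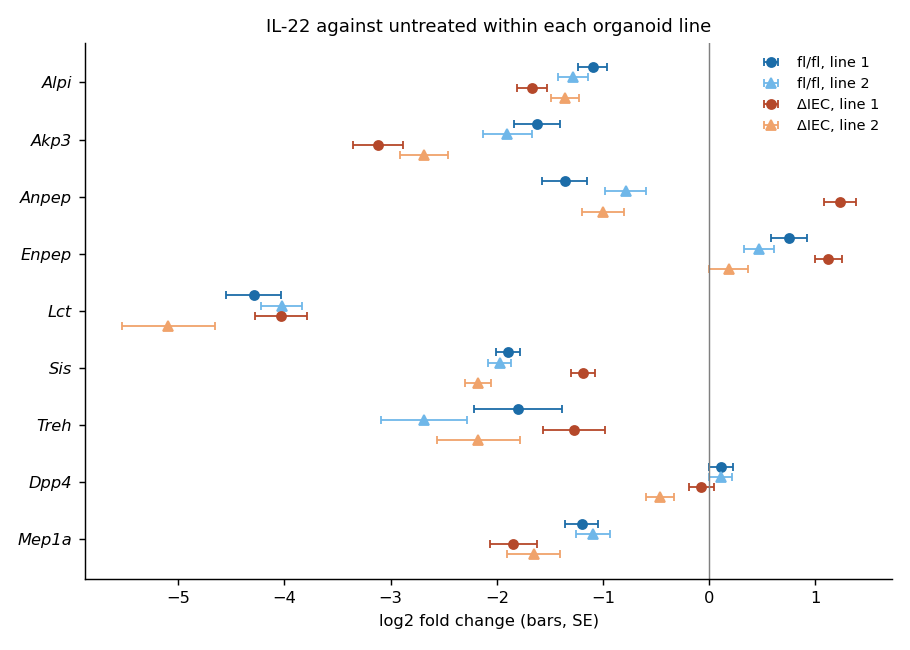
Log2 fold change of IL-22 against untreated cultures within each of the 4 organoid lines (points, with bars for the SE, 2 cultures per treatment). Anpep is the 1 gene on both sides of 0 with values that pass, at 1.23 in line 1 and -0.999 in line 2 of ΔIEC.

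Other enzymes of the brush border were read from a list of 19 genes, of which 13 passed the filter. With IL-22, 7 of 13 fell and 2 rose in fl/fl, and 4 fell and 1 rose in ΔIEC, and with the line as a block 8 fell and 2 rose in fl/fl, and 7 fell and 2 rose in ΔIEC. Of all genes 20.8% passed in fl/fl and 17.5% in ΔIEC without the block. The median log2 fold change was -0.81 and -1.02, against -0.05 and -0.01 over all genes. Mgam, which encodes maltase-glucoamylase, averaged 1006 CPM untreated and 839 CPM treated in fl/fl (-0.26, adjusted p = 0.0899). In ΔIEC it averaged 798 and 846 CPM (0.08, adjusted p = 0.644), and with the block it passed as a fall in fl/fl only. Mep1b, the gene of meprin beta, averaged 78.3 and 77.8 CPM in fl/fl (0.005, adjusted p = 0.987). In ΔIEC it averaged 76.1 and 104 CPM (0.44, adjusted p = 0.0370, and 0.00129 with the block). Mme (neprilysin, an endopeptidase) fell from 15.8 ± 9.39 to 0.943 ± 0.388 CPM in fl/fl and from 28.6 ± 13.1 to 4.67 ± 4.56 CPM in ΔIEC (adjusted p = 0.000355 and 0.000556). Cpm (here the gene of carboxypeptidase M, not the unit) and Asah2, a ceramidase, fell in both genotypes as well (-1.21 and -1.84 for Cpm, -0.81 and -1.02 for Asah2). The peptidase gene Naaladl1 (-1.17) and Enpp3, which encodes a nucleotide phosphodiesterase (-1.67), passed in fl/fl, and in ΔIEC passed with the line as a block and not without it. Ace, the peptidase that forms angiotensin II, went against them and rose in fl/fl (1.15, adjusted p = 0.000734) and ΔIEC (1.40, adjusted p = 0.000250). Nt5e, which encodes a 5′-nucleotidase, rose in fl/fl (1.45, adjusted p = 0.00454) and not in ΔIEC (0.59, adjusted p = 0.396), and the interaction did not pass (adjusted p = 0.825). Between untreated genotypes Cpm and Naaladl1 were lower in ΔIEC (-1.23 and -1.95, adjusted p = 0.000404 and 0.000102).

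**Figure D5:**
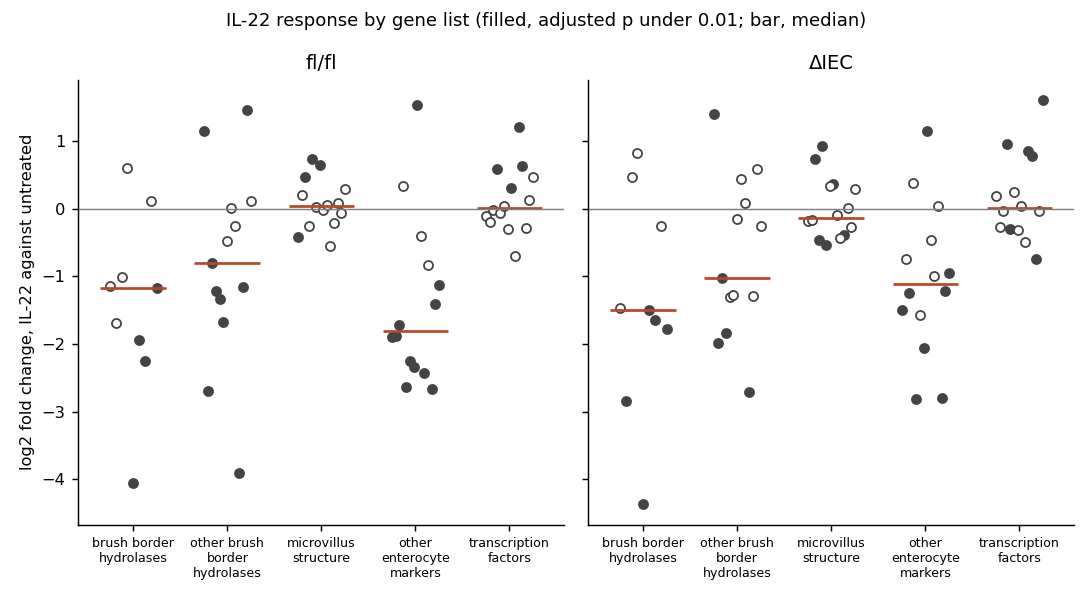
Log2 fold change of IL-22 against untreated organoids in fl/fl and ΔIEC for the 9 hydrolases and for 4 further gene lists (1 point per tested gene, filled where the adjusted p is under 0.01, with a bar at the list median). The medians of both hydrolase lists and of the enterocyte markers lie at -0.81 or lower, and those of the microvillus and transcription factor lists lie near 0.

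Genes of the microvillus core and its links moved in both directions. Of 14 tested, 3 rose and 1 fell in fl/fl and 3 rose and 3 fell in ΔIEC (medians 0.04 and -0.13), where 20.8% and 17.5% of all genes passed. With the line as a block 4 rose and 1 fell in fl/fl and 5 rose and 4 fell in ΔIEC. The actin regulator Eps8 went from 154 ± 21.2 to 257 ± 14.1 CPM in fl/fl (0.74, adjusted p = 2.48e-05), and Cdhr5, a cadherin of the links between microvillus tips, from 203 ± 14.0 to 281 ± 16.9 CPM (0.47, adjusted p = 0.000320), and both also rose in ΔIEC (0.92 and 0.73). The actin bundler Pls1 fell in ΔIEC (-0.40) and Anks4b in fl/fl (-0.41). Of 14 enterocyte markers other than hydrolases, 10 fell and 1 rose in fl/fl and 7 fell and 1 rose in ΔIEC (medians -1.80 and -1.11). With the line as a block 11 fell and 2 rose in each genotype. The sugar transporters Slc2a2 and Slc5a1, which carry the products of the disaccharidases, fell in fl/fl (-2.67 and -1.13) and in ΔIEC (-2.79 and -0.95), as did the apolipoprotein gene Apoc3 (-2.63 and -2.81). The keratin gene Krt20 was the 1 marker of that list that rose without the block, from 189 ± 29.6 to 546 ± 6.97 CPM in fl/fl (1.54, adjusted p = 1.88e-06) and from 189 ± 39.9 to 417 ± 127 CPM in ΔIEC (1.15, adjusted p = 4.70e-05).

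Transcription factors known to act on brush border genes were read as a list of 14, in which Gata4 and Pdx1 of the proximal list also stand. Of these, 4 rose and none fell in fl/fl, and 4 rose and 2 fell in ΔIEC (medians 0.01 in both), where 20.8% and 17.5% of all genes passed in either direction. With the line as a block 4 rose in each, and 2 fell in fl/fl and 4 in ΔIEC. Gata5, Klf5 and Klf4 rose in fl/fl (0.59, 0.63 and 1.20) and in ΔIEC (0.96, 0.77 and 0.85). Hnf4a passed as a rise in fl/fl only (0.31, adjusted p = 0.000611). Maf and Gata6 fell in ΔIEC (-0.74 and -0.31, adjusted p = 0.000396 and 0.00711). With the line as a block Cdx2 and Hnf4g fell in fl/fl (-0.21 and -0.72) and in ΔIEC (-0.26 and -0.47). Prdm1, the repressor BLIMP1 of the fetal and suckling intestine, rose in ΔIEC from 2.01 ± 0.647 to 6.41 ± 1.36 CPM (1.61, adjusted p = 0.000297), and was 4.56 ± 1.06 and 6.46 ± 1.40 CPM in fl/fl (adjusted p = 0.159).

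The genes with the most similar pattern were sought by Pearson correlation of log2 CPM over the 16 cultures, which share lines, groups and depth, so the values are descriptions. For the mean z-score of the 9 hydrolases they were Cyp2c68 (r = 0.974), Mtch2 (0.972), Slco2b1 (0.970), Arg2 (0.964) and Cyp2c65 (0.963). For single genes they were Acot7 for both Alpi (0.963) and Akp3 (0.969), Gstm1 for Lct (0.978), Cyp3a25 for Sis (0.975), Gm20528 for Treh (0.963), Hmgn5 for Anpep (0.861), Gpkow for Enpep (0.871), Cftr for Dpp4 (0.910) and Pdcd4 for Mep1a (0.986). Gstm1, which encodes a glutathione transferase, fell with IL-22 by 2.05 on the log2 scale in fl/fl and by 2.16 in ΔIEC, and Cyp3a25, a cytochrome P450 gene, by 2.76 and 2.56.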

How the data were processed

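RNA was sequenced from 16 organoid cultures in 4 groups of 4, grouped by the sample labels. Per the labels and the paper's methods, paired-end reads went through cutadapt and TopHat2 (mm10/GRCm38), and what the authors deposited is the raw counts of HTSeq for each gene. The library kit is TruSeq RNA v2 in the labels and stranded total RNA in the methods. How HTSeq treated strand, the annotation release and tool versions are not given in the sources used here. Reads on genes were 36.3% to 38.3% of each table. Reads outside genes (38.0% to 40.1%) and those aligned to several places (21.5% to 24.2%) have lines of their own and were left out.

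Of 49585 genes, 49326 were matched without the version to GENCODE mouse release M21 (GRCm38) for symbols, positions and exon lengths. In R 4.3.3, edgeR 4.0.16 kept 12559 genes (filterByExpr), scaled libraries by TMM and ran two-sided quasi-likelihood tests on a fit of 4 group means, with Benjamini-Hochberg adjustment over all tested genes and a threshold of 0.01. The standard error is the log2 fold change over the square root of F. Log2 CPM used a prior count of 2. Counting error alone sets a floor of about 3 counts, and depth limits Lct and Treh most. Pairs of cultures of a group differed by more than sampling noise, by a chi-square per degree of freedom that is larger for less alike pairs. Pairs of the same line had 1.41 to 4.20, except the treated ΔIEC cultures of line 1, which had 9.58. The second of these had 8.98 and 5.40 against the treated cultures of line 2, so it was no closer to its own line. The fits were tested on simulated counts. These were drawn independently for each culture without line differences, so error rates for cultures nested in lines were not tested.

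Cultures of a group carry the organoid numbers of 2 lines, so the line served as a block for the IL-22 effects. Deviations from the group mean correlated at 0.26 to 0.44 between treated and untreated cultures of a line in fl/fl and 0.06 to 0.32 in ΔIEC, and at -0.43 to -0.22 and -0.35 to -0.08 between lines. Deviations cancel within a group, so the negative values between lines follow from the positive ones within lines and are no separate evidence. Lines are nested in genotype, so no block was possible between genotypes.

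The 9 genes and all gene lists (other brush border hydrolases, microvillus structure, enterocyte markers, transcription factors, proximal small intestine, ileum, stem, Paneth, goblet, enteroendocrine, tuft, immune and stromal) were chosen with earlier results of these data known. Named are the 9 genes, up to 8 other hydrolases of smallest adjusted p in any group comparison among those that passed, up to 4 genes of each further list by smallest adjusted p in either IL-22 effect, the most similar genes by correlation, and Atg16l1, Reg3b and Socs3 as label checks. Mgam and Mep1b, and the transcription factor genes Hnf4a, Maf, Gata6, Cdx2 and Hnf4g, are named outside this rule. Alternatives were RLE scaling, 2 other filters, DESeq2 1.42.0, limma-voom (limma 3.58.1) with the line as a random effect, the compared groups alone, the line block, summed lines, a threshold of 0.05, thinned counts, left-out cultures or lines and, added after seeing the data, fits within lines. Promoters and motif shares came from RefSeq promoters (GRCm38.p6), in which all 9 genes were matched. Protein sequences were not used here. A gene of the list of other hydrolases that the rule names is not reported here.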

Additional observations from a re-analysis of the deposited data

Results flagged for a closer look

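3 differences between sets of cultures passed a test of the difference itself. The first is the deeper fall of Akp3 with IL-22 in ΔIEC than in fl/fl when the line is a block, a log2 difference of -1.14 (adjusted p = 0.00924, edgeR), which did not pass without the block. The second is the IL-22 effect on Anpep in ΔIEC, which was lower in line 2 than in line 1 by -2.23 on the log2 scale (adjusted p = 1.98e-06). It rose in both treated cultures of line 1, to 93.2 and 71.9 CPM, and fell in both of line 2, to 17.5 and 18.8 CPM. The third is the IL-22 effect on Sis in ΔIEC, lower in line 2 by -0.99 (adjusted p = 0.000943), where treated cultures held 103 and 111 CPM in line 2 and 416 and 298 CPM in line 1. The level of Atg16l1 in treated ΔIEC has 1 culture apart from the rest, the second of line 1, at 5.96 CPM against 0.289 to 0.810 CPM in the other 3 (Dixon's ratio 0.908 in CPM, over the critical value for 4 samples, and 0.768 on the log2 scale, under it). It was the 1 such case among 48 sets of 4 values (the 9 hydrolases, Atg16l1, Reg3b and Socs3 in 4 groups) on both scales. Each set holds 2 cultures of each of 2 lines, so a gap between the lines falls in the middle of the values, where Dixon's test marks nothing.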

How the results depend on the processing

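Of 1717 alternative values of single genes, 1582 kept their direction and side of the threshold, 73 came to pass, 37 no longer passed and 25 changed sign. With the replicate block (organoid line), 7 genes fell and 1 rose with IL-22 in fl/fl, 1 rose in ΔIEC and 1 interaction was lower, and among the 9 genes it changed no call other than those given beside the results. Without a filter on low counts, 7 fell and 1 rose in fl/fl, 2 rose in ΔIEC, the interaction had 1 higher and 1 lower, untreated ΔIEC had 1 higher and 4 lower, and treated ΔIEC 3 higher and 4 lower. In that fit the adjusted p was far lower at a similar log2 fold change for Alpi in fl/fl (-1.14, 1.33e-32) and the interaction of Akp3 (-1.15, 6.64e-15). Shares of all genes are not given for changed filters, summed lines, the threshold of 0.05 or left-out cultures, so those counts stand without a background. At least 10 counts in every culture removed Lct and Treh and left 2 falls in fl/fl and 3 in ΔIEC. Summing the cultures of a line left 2 falls in each genotype, 0 lower genes in untreated ΔIEC, and 0 higher and 1 lower in treated ΔIEC, with fewer samples. The falls of Sis and Treh no longer passed in either genotype, nor did that of Akp3 in ΔIEC. Between genotypes the calls of Mep1a untreated and of Anpep and Dpp4 treated were lost. Between genotypes, a threshold of 0.05 added Dpp4 as lower in untreated ΔIEC (adjusted p = 0.0458) and Treh as higher in treated ΔIEC (adjusted p = 0.0269). The higher call of Anpep was lost with limma-voom and with the compared groups only (0 each), and DESeq2 called 1 gene higher in line 2 of ΔIEC. Fits within lines, added after seeing the data, gave 7 falls and 1 rise in fl/fl line 1, 7 falls in fl/fl line 2, 6 falls and 2 rises in ΔIEC line 1 and 8 falls in ΔIEC line 2. For these changes the cause was not tested unless stated.

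Leaving out 1 culture or 1 line gave 4 to 6 falls with IL-22 in fl/fl, 2 to 6 falls and 0 to 1 rises in ΔIEC, 0 to 1 higher interactions, 1 to 2 lower and 0 to 1 higher genes in untreated ΔIEC, 0 to 3 higher genes in treated ΔIEC, and 1 to 2 higher and 3 to 6 lower genes in line 2 of ΔIEC. In line 2 of ΔIEC the call of Akp3 was lost without the first untreated culture of line 1 (adjusted p = 0.0108) or the first treated one of line 2 (0.0186). That of Anpep was lost without any 1 of the 4 treated cultures (0.0166 to 0.0475), and that of Dpp4 without 4 single cultures (0.0172 to 0.0596).

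Signs turned only for values that did not pass in the fit of group means. With limma-voom the log2 fold change of Alpi between treated genotypes was 0.0858 and the interaction of Enpep -0.0925, and within line 2 of ΔIEC Anpep had -0.999. Over left-out cultures or lines the interaction ran from -0.64 to 0.0490 for Alpi, from -0.43 to 0.48 for Enpep, from -1.45 to 0.0732 for Lct and from -0.25 to 0.71 for Sis. The untreated genotype difference ran from -0.31 to 1.46 for Akp3, from -0.33 to 1.20 for Alpi and from -0.35 to 0.93 for Enpep. The treated one ran from -1.53 to 0.50 for Akp3, from -0.70 to 0.99 for Alpi, from -0.78 to 1.14 for Enpep and from -1.39 to 0.32 for Sis, and the IL-22 effect in ΔIEC from -0.998 to 1.21 for Anpep.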

Other observations

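Markers of the other epithelial cell types moved in mixed directions. Each list is short, and its counts stand against 20.8% of all genes that passed with IL-22 in fl/fl and 17.5% in ΔIEC (30.6% and 25.5% with the line as a block). Of 7 stem cell genes, 2 fell and none rose with IL-22 in fl/fl, and 4 fell in ΔIEC (4 and 6 with the line as a block). Smoc2 fell from 129 ± 9.62 to 44.0 ± 2.50 CPM in fl/fl (SD, n = 4, log2 fold change -1.55 (adjusted p = 1.15e-10)) and from 165 ± 11.9 to 57.8 ± 5.59 CPM in ΔIEC (-1.52 (adjusted p = 9.84e-11)). Olfm4 fell from 144 ± 78.7 to 24.3 ± 5.50 CPM in fl/fl and from 584 ± 58.9 to 199 ± 67.3 CPM in ΔIEC, and was higher in ΔIEC than in fl/fl untreated (2.04 (adjusted p = 7.08e-05)). Of the 7 genes, 3 were higher and 1 lower in untreated ΔIEC than in untreated fl/fl, where 9.76% of all genes passed. In treated organoids 3 were higher and 2 lower in ΔIEC (19.8% of all genes). The summed level of the 7 genes was 587 to 794 CPM in untreated and 393 to 427 CPM in treated fl/fl cultures, and 1057 to 1232 and 488 to 612 CPM in ΔIEC. Olfm4 was the largest part of that sum in untreated ΔIEC.

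Of 7 goblet cell genes, 2 rose and 1 fell in fl/fl and 2 rose and 2 fell in ΔIEC (with the block 2 rose and 3 fell, and 3 rose and 4 fell). The mucin gene Muc2 went from 75.3 ± 9.66 to 147 ± 11.3 CPM in fl/fl (0.96 (adjusted p = 0.000113)) and Agr2 rose as well (0.41 (adjusted p = 0.00108)). Both also rose in ΔIEC (1.17 (adjusted p = 3.70e-05) and 0.78 (adjusted p = 1.49e-06)). Fcgbp and Tff3 fell in ΔIEC (-0.95 (adjusted p = 0.00145) and -0.83 (adjusted p = 0.00339)). Between lines, 4 of the 7 goblet genes were lower in line 2 of fl/fl and 5 higher in line 2 of ΔIEC, the direction of Alpi and Akp3, and of 14 enterocyte markers 11 were lower and 1 higher in line 2 of ΔIEC, the direction of Lct and Sis there, while 2 were higher and 1 lower in line 2 of fl/fl. The direction of the goblet genes was also that of other lists. In line 2 of fl/fl, 3 of 6 Paneth, 2 of 6 enteroendocrine and 3 of 14 microvillus genes were lower and none higher. In line 2 of ΔIEC, 2, 3 and 2 of them were higher and none lower. Between lines 11.0% of all genes passed in fl/fl and 3.98% in ΔIEC. Of 6 Paneth cell genes 1 rose in each genotype, Mmp7 (1.61 (adjusted p = 1.02e-06) in fl/fl and 1.59 (adjusted p = 1.41e-06) in ΔIEC), and with the block 3 rose in fl/fl. Of 6 enteroendocrine genes 2 rose in fl/fl and 1 in ΔIEC (3 and 2 with the block), with Tac1 rising in both (1.87 (adjusted p = 4.83e-06) and 1.44 (adjusted p = 5.40e-05)). Of 3 tested tuft cell genes Avil rose in both (1.82 (adjusted p = 0.000139) and 1.81 (adjusted p = 7.77e-05)). Of 3 tested ileum genes none passed in fl/fl and 1, Gucy2c, rose in ΔIEC (0.33 (adjusted p = 0.00724)), and none of the 4 proximal genes or the 2 tested immune genes passed. With the block Osr2 fell in both genotypes, Onecut2 rose and Cybrd1 fell in both, and Cd68 rose in fl/fl. The part of these cell types in the fall of the hydrolases was not tested. Socs3, a target of STAT3, went from 9.43 to 225 CPM in fl/fl and from 8.88 to 171 CPM in ΔIEC.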
